A study of Mus musculus with 24 samples.

Results

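Transcript levels of 10 transcription regulators of the smooth muscle cell state were followed in the MOVAS line, which derives from mouse aortic smooth muscle. The genes were Myocd, Srf, Klf4, Klf5, Klf6, Mef2a, Mef2c, Tead1, Foxo1 and Tbx2, taken by symbol, and all 10 were found among the 33034 genes of the deposited table. RNA had been sequenced from 24 libraries in 8 groups of 3. There were 4 backgrounds: WT cells, cells of WT genotype under ADAM9i treatment, Rosa26-KO cells and Adam9-KO cells. ADAM9i stands for an inhibitor of ADAM9, a membrane-anchored metalloprotease, and editing at Rosa26 is widely used as a control for editing itself. Each background was given Vehicle or rhCTHRC1, a recombinant human form of the secreted protein CTHRC1, and the comparison asks whether the response to rhCTHRC1 depends on ADAM9. The labels give no dose, time or inhibitor name, and do not state whether an edited line is a clone or a pool or whether the replicates were separate cultures, so p-values measure only the spread between these libraries. Sample titles carry the code sg2 for Adam9-KO, and only the titles of WT libraries carry a C or T next to the treatment code.

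Smooth muscle cells of the vessel wall can leave a contractile state and take up a proliferative, matrix-producing one, a change known as phenotypic modulation. Serum response factor (SRF) binds the CArG box, a short AT-rich element in the promoters of many contractile genes and of immediate early genes. Myocardin (Myocd) and the related MRTF proteins join SRF to drive the contractile genes, while ternary complex factors such as ELK1 join it at immediate early genes. KLF4, a zinc-finger factor, is known to repress contractile genes and is induced during modulation, and KLF5 is known from embryonic and injured vessels. MEF2 factors are relatives of SRF that bind a similar AT-rich site, TEAD1 is the DNA-binding partner of YAP and TAZ, FOXO1 is a forkhead factor held in the cytoplasm by AKT signalling, and TBX2 is a T-box repressor.

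Promoters of 6 of the 10 genes (Srf, Klf4, Klf6, Mef2a, Mef2c and Foxo1) were available from RefSeq (GRCm38.p6), each 300 bases from 250 before to 50 after the transcript start. The 4 below are shown because these genes moved with rhCTHRC1 and because each holds a binding motif of its own family. Capitals in Srf (chr17:46556113-46556412, minus strand) mark CArG boxes, capitals in Mef2a (chr7:67372809-67373108, minus strand) mark a MEF2 site, and capitals in Klf4 (chr4:55532426-55532725, minus strand) and Klf6 (chr13:5861239-5861538, plus strand) mark the KLF/SP box GGGCGG on either strand.
Srf: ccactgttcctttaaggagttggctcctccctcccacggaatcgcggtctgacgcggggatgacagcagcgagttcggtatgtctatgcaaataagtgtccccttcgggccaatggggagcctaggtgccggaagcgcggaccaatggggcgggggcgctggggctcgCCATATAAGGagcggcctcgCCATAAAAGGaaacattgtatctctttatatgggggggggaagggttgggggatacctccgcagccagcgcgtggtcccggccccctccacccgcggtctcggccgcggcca
Mef2a: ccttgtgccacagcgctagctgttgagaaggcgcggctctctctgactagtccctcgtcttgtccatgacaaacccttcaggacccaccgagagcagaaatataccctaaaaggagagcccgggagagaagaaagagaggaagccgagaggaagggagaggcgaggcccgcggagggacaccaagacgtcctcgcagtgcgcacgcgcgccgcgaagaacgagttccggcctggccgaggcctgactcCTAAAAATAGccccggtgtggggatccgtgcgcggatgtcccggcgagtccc
Klf4: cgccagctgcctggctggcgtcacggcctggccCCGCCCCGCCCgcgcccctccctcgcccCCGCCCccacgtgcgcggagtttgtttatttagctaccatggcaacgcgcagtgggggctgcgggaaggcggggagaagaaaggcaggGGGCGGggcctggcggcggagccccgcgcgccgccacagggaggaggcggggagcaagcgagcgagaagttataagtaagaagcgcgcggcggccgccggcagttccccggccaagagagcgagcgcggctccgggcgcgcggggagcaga
Klf6: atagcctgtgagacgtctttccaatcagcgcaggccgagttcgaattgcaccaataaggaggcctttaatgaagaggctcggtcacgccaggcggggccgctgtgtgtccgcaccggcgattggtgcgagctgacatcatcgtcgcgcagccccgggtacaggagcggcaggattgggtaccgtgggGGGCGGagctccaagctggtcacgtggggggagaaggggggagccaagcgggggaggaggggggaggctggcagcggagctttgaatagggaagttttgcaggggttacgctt

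The Srf promoter held 2 CArG boxes, starting at -82 and -62 from the transcript start, and 1.63% of the 32851 mouse promoters searched held at least 1. The Mef2a promoter held a MEF2 site at -2, a motif found in 0.557% of promoters. GGGCGG occurred 4 times in the Klf4 promoter, of which the first 2 matches overlap by a base, and once in that of Klf6, and 35.7% of all promoters hold it. These are matches of letters on both strands, not measured binding.

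Libraries held 53135752 to 65833125 counts in genes, so that 3 counts, the most that a count of 0 allows, corresponded to 0.0444 to 0.0582 CPM (counts scaled to the size of the library). That limit covers counting error only. The 3 WT vehicle libraries stood apart: their scores on the first principal component (25% of the variance) ran from -119 to -115, against -6.71 to 53.8 for the other 21. The members' results that use them are repeated with another vehicle group as control, except the comparisons of vehicle groups with WT vehicle, for which this cannot be done. Adam9 checked the labels: it was at 236 ± 6.18 CPM (SD, n = 3) in Rosa26-KO vehicle and 138 ± 10.1 CPM in Adam9-KO vehicle libraries, so its transcript was lower but not absent. Of the defining markers of smooth muscle, Acta2 group means ranged from 40.4 to 469 CPM and those of Tagln from 1.83 to 14.9 CPM, while Cnn1 lay between 0.18 and 1.79 CPM and Myh11 between 0.13 and 0.51 CPM. The summed level of 6 fibroblast markers was 77.6 to 83.6 CPM in WT vehicle and 274 to 499.9 CPM in the other libraries. Sums reached 26.4 CPM for 7 endothelial markers (highest in WT vehicle), 15.98 CPM for 6 macrophage markers and 28.6 CPM for 4 striated muscle markers. No marker found in the table was at 0 in all libraries, but many lay under 1 CPM as a mean over all libraries. These were 5 of 7 endothelial, 4 of 6 macrophage, 3 of 6 fibroblast and 3 of 4 striated muscle markers, so each sum rests on few genes. Myod1 and Myog, also listed as striated muscle markers, were not in the table. In bulk RNA, fewer cells of a type and less RNA per cell cannot be told apart.

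Per transcript length, Klf4, Srf and Klf6 had the highest means over the groups and Myocd the lowest. As the mean over the 8 group means, Klf4 was at 32.8 FPKM (fragments per kilobase of transcript, scaled to the depth of the library), Srf at 22.1 FPKM and Klf6 at 19.5 FPKM. The Klf4 mean was carried by WT vehicle (110.2 FPKM): in both ADAM9i and both Rosa26-KO groups Klf4 lay below Srf, and in Rosa26-KO with rhCTHRC1, at 10.7 FPKM, also below Tead1 (12.4 FPKM). Tead1, at 12.8 FPKM, and Mef2a, at 6.54 FPKM, followed. Foxo1 lay at 2.82 FPKM, Klf5 at 1.83 FPKM and Mef2c at 1.74 FPKM, with overlapping ranges of group means. Tbx2, at 0.587 FPKM, and Myocd, at 0.160 FPKM, were near the low end, Myocd with 13 to 150 counts per library. The spread between replicates was also uneven, and did not follow level alone. The median coefficient of variation over the 8 groups was 2.81% for Tead1 and 4.56% for Klf4, but 25.0% for Myocd, 24.2% for Mef2c and 19.8% for Tbx2.

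**Figure D1:**
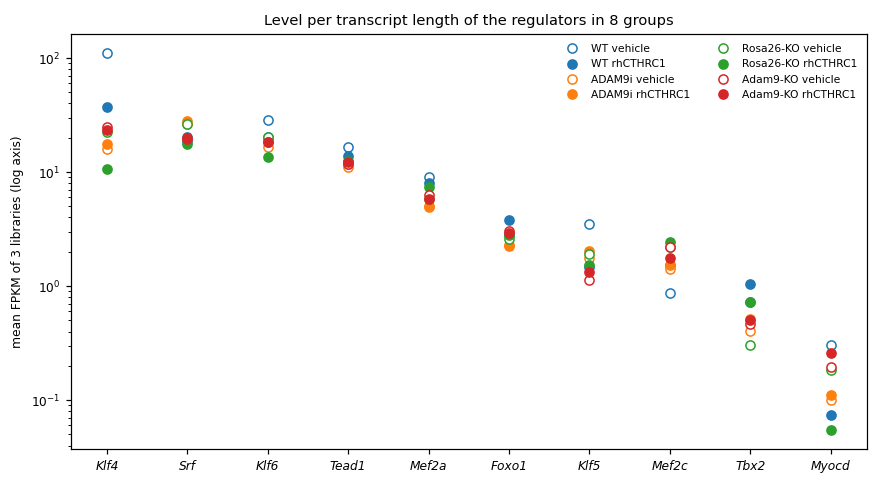
Mean FPKM of 3 libraries (log axis) for each regulator in 8 groups, open circles for vehicle and filled for rhCTHRC1, genes in order of their mean. Klf4 spans the widest range, from 10.7 FPKM in Rosa26-KO with rhCTHRC1 to 110.2 FPKM in WT vehicle, and Myocd lies below 0.31 FPKM in every group.

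In Rosa26-KO cells, the editing control, Myocd, Srf, Klf4, Klf5 and Klf6 fell and Mef2a and Tbx2 rose after rhCTHRC1, while Mef2c, Tead1 and Foxo1 did not pass the test. Thus 7 of the 10 were called at an adjusted p under 0.05 (edgeR), 2 higher and 5 lower, where 45.2% of the 18594 genes tested were called, 22% higher and 23.3% lower. The median change of the 10 was -0.24 on the log2 scale against 0.03 over all genes, and the median size of the change was 0.52 against 0.33. All 10 passed the filter on low counts. Where groups are said not to overlap, here and below, the share of all genes without overlap was not counted.

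Myocd (ENSMUSG00000020542, chr11:65176561-65269989, minus strand, GRCm38), the muscle-restricted coactivator of SRF, was at 1.48, 1.52 and 1.01 CPM in the 3 Rosa26-KO vehicle libraries and at 0.201, 0.445 and 0.490 CPM after rhCTHRC1. Every treated library lay below every vehicle library, although the counts were few (13 to 31 per treated library). The log2 change was -1.80 ± 0.34 (SE), adjusted p = 0.000194. Srf (ENSMUSG00000015605, chr17:46548329-46556175, minus strand), whose promoter holds the CArG boxes shown, stood at 89.5, 86.8 and 82.5 CPM under vehicle and at 54.0, 50.4 and 57.0 CPM after treatment. The 2 groups did not overlap, and the change was -0.67 ± 0.06 (adjusted p = 2.75e-08).

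Klf4, Klf5 and Klf6 fell together in Rosa26-KO cells, Klf4 most. Klf4 (ENSMUSG00000003032, chr4:55527143-55532466, minus strand) was at 79.4, 77.3 and 74.7 CPM under vehicle and at 36.7, 32.7 and 33.9 CPM after rhCTHRC1, a log2 change of -1.15 ± 0.06 (adjusted p = 1.37e-11). The treated libraries were the 3 lowest of all 24 for this gene. For Klf6 (ENSMUSG00000000078, chr13:5861482-5870394, plus strand), a zinc-finger factor of the same family, the values were 104, 101 and 96.3 CPM and then 64.4, 61.3 and 65.0 CPM, a change of -0.65 ± 0.06 (adjusted p = 7.99e-08). Klf5 (ENSMUSG00000005148, chr14:99298691-99315036, plus strand) changed least of the 3, from 11.8, 11.9 and 9.99 CPM to 7.69, 8.99 and 8.58 CPM. Its groups did not overlap either, and the change was -0.40 ± 0.12 (adjusted p = 0.00911).

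Mef2a rose and Mef2c did not pass the test, so the MEF2 factors of the set differed in their calls, a difference that was not tested itself. Mef2a (ENSMUSG00000030557, chr7:67231163-67372858, minus strand) was at 93.3, 95.3 and 102 CPM under vehicle and at 114, 116 and 114 CPM after rhCTHRC1, without overlap (log2 change 0.26 ± 0.05, adjusted p = 0.000382). Lysmd4 overlaps Mef2a on the other strand by 302 bases, and whether counting used strand is not given in the sources used here, so reads from the overlap cannot be told apart. Mef2c (ENSMUSG00000005583, chr13:83504034-83667078, plus strand) varied more between replicates, at 36.9, 39.4 and 39.7 CPM under vehicle against 28.2, 47.0 and 47.3 CPM after treatment. One treated library lay below and 2 above all vehicle libraries, and the change was 0.09 ± 0.22 (adjusted p = 0.78).

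Tbx2 (ENSMUSG00000000093, chr11:85832551-85841948, plus strand) rose from 1.32, 1.16 and 1.24 CPM to 2.58, 3.39 and 2.34 CPM, with no overlap (log2 change 1.17 ± 0.27, adjusted p = 0.00125). Tead1 and Foxo1 stayed within 0.08 of 0 on the log2 scale. Tead1 (ENSMUSG00000055320, chr7:112679318-112906807, plus strand) was at 189 ± 4.27 CPM under vehicle and 178 ± 4.85 CPM after rhCTHRC1, with every treated library below every vehicle library (-0.07 ± 0.04, adjusted p = 0.174). Foxo1 (ENSMUSG00000044167, chr3:52268336-52353221, plus strand) was at 25.0 ± 1.76 and 26.01 ± 1.26 CPM (0.07 ± 0.08, adjusted p = 0.531). An antisense gene, Gm20402, overlaps Foxo1 by 674 bases, with the same limit as for Mef2a. Beside these changes, the summed fibroblast markers went from 304 to 330 CPM up to 479.9 to 499.9 CPM in the same libraries (4 of 6 called higher), and the summed endothelial markers from 2.67 to 3.04 CPM up to 7.15 to 8.06 CPM (of 4 tested, 1 higher and 1 lower). Neither sum overlapped between the groups, and their part in the results was not tested.

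**Figure D2:**
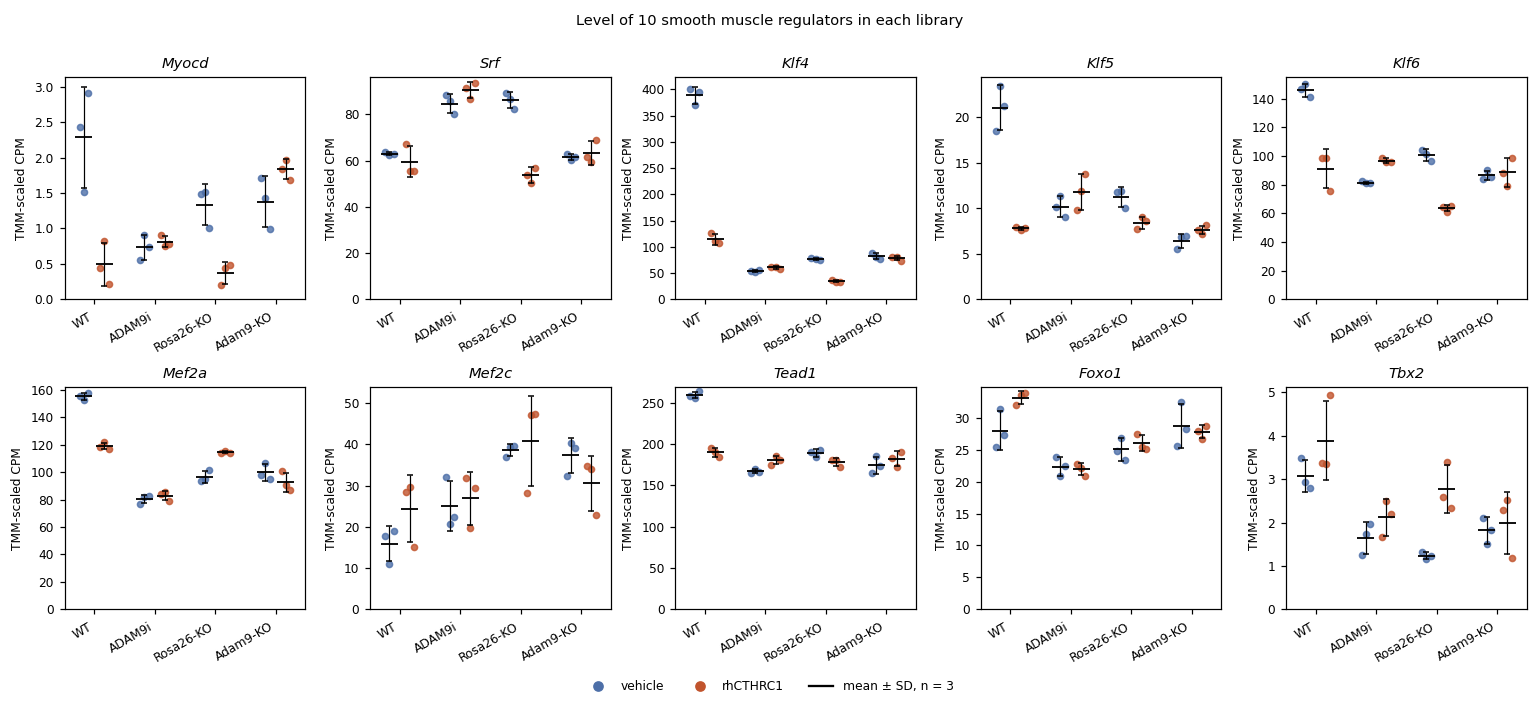
Level in TMM-scaled CPM (linear axes from 0) of each regulator in every library, blue for vehicle and orange for rhCTHRC1, with the mean ± SD of 3 libraries as black bars. In Rosa26-KO the treated libraries lie below the vehicle libraries for Myocd, Srf, Klf4, Klf5 and Klf6 and above them for Mef2a and Tbx2, and in Adam9-KO the treated and vehicle libraries overlap for every gene but Klf5.

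In Adam9-KO cells no member was called after rhCTHRC1. The count was 0 of 10 by edgeR, where 0% of the 18594 genes were called, and no member had an unadjusted p under 0.05, against 1387 of all genes. DESeq2 called 33 genes and no member. Myocd was at 1.71, 1.43 and 0.990 CPM under vehicle and at 1.84, 1.97 and 1.69 CPM after treatment. These groups overlapped, and the log2 change was 0.42 ± 0.31 (adjusted p = 0.811). Klf4 was at 87.9, 81.4 and 77.1 CPM and then at 81.2, 80.3 and 74.0 CPM, again overlapping (-0.06 ± 0.06, adjusted p = 0.867). Srf was at 62.8, 60.4 and 61.4 CPM and then at 61.5, 59.3 and 69.0 CPM (0.04 ± 0.06, adjusted p = 0.929). Klf5 was the single member whose groups did not overlap, at 5.57, 6.85 and 6.95 CPM against 7.62, 7.20 and 8.12 CPM, with a change of 0.25 ± 0.12 (adjusted p = 0.676). Without the share of all genes apart in this way, nothing is read from that. The median size of change of the 10 was 0.09 on the log2 scale, as it was over all genes.

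The responses themselves were compared between the 2 edited backgrounds. Of the 10 members, 7 had a response in Adam9-KO cells that differed from that in Rosa26-KO cells (edgeR), 5 higher and 2 lower, where 37.9% of genes were called, 20.1% higher and 17.8% lower. For Myocd the difference was 2.22 ± 0.46 on the log2 scale (adjusted p = 0.000697), for Srf 0.71 ± 0.08 (adjusted p = 1.85e-06) and for Klf4 1.09 ± 0.08 (adjusted p = 5.64e-09). Klf5 differed by 0.65 ± 0.17 (adjusted p = 0.00478) and Klf6 by 0.68 ± 0.09 (adjusted p = 5.23e-06). In the other direction, Mef2a differed by -0.36 ± 0.07 (adjusted p = 0.000638). The difference for Tbx2, -1.03 ± 0.37 (adjusted p = 0.0363), lost its call in 8 of the 12 fits that left out 1 library each, with adjusted p up to 0.111. Those 8 were Adam9-KO rhCTHRC1 replicate 3, Adam9-KO vehicle replicates 1 and 3, Rosa26-KO rhCTHRC1 replicates 1 and 2 and each Rosa26-KO vehicle replicate. For Tead1 (0.14 ± 0.06), Mef2c (-0.38 ± 0.31) and Foxo1 (-0.11 ± 0.11) the difference did not pass. A p that misses the threshold does not show that the responses are alike. Leaving out Adam9-KO rhCTHRC1 replicate 2 or Adam9-KO vehicle replicate 2 brought Tead1 past the threshold, and leaving out Rosa26-KO rhCTHRC1 replicate 1 did so for Mef2c.

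Under vehicle, the 2 edited backgrounds already differed in 3 members. Srf, Klf5 and Klf6 were lower in Adam9-KO than in Rosa26-KO cells (3 of 10 by edgeR, where 15.2% of genes were called, 6.37% higher and 8.83% lower). Srf differed by -0.49 ± 0.06 (adjusted p = 4.33e-05) and Klf5 by -0.80 ± 0.12 (adjusted p = 0.000276), and the libraries of both groups did not overlap for either gene. Klf6 differed by -0.22 ± 0.06 (adjusted p = 0.0205), and this call was lost when Adam9-KO vehicle replicate 1 or 3 or Rosa26-KO vehicle replicate 1 or 2 was left out, with adjusted p up to 0.104. It was also lost with all 24 libraries in the fit (adjusted p = 0.0705) and with limma on FPKM (adjusted p = 0.103). Leaving out Adam9-KO vehicle replicate 1 added Foxo1, and leaving out replicate 2 added Tead1. For Srf, Klf5 and Klf6 the difference in response thus went together with unequal vehicle levels. For Myocd (0.03 ± 0.31, adjusted p = 0.966) and Klf4 (0.08 ± 0.06, adjusted p = 0.356) no difference under vehicle was detected.

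After rhCTHRC1, Adam9-KO and Rosa26-KO cells differed in 5 of 10 members (40.6% of genes by edgeR, 21% higher and 19.6% lower). Myocd was 4.77-fold higher in Adam9-KO (log2 difference 2.25 ± 0.34, adjusted p = 2.27e-05) and Klf4 2.25-fold higher (1.17 ± 0.06, adjusted p = 1.25e-11). Klf6 was higher by 0.46 ± 0.06 (adjusted p = 6.95e-06) and Srf by 0.22 ± 0.06 (adjusted p = 0.0059), while Mef2a was lower, at -0.32 ± 0.05 (adjusted p = 5.16e-05). For these 5 genes the libraries of both groups did not overlap. Klf5, at 8.42 ± 0.66 CPM in Rosa26-KO and 7.65 ± 0.46 CPM in Adam9-KO, overlapped (-0.16 ± 0.12, adjusted p = 0.336). Mef2c was called as well when Rosa26-KO rhCTHRC1 replicate 1 was left out.

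**Figure D3:**
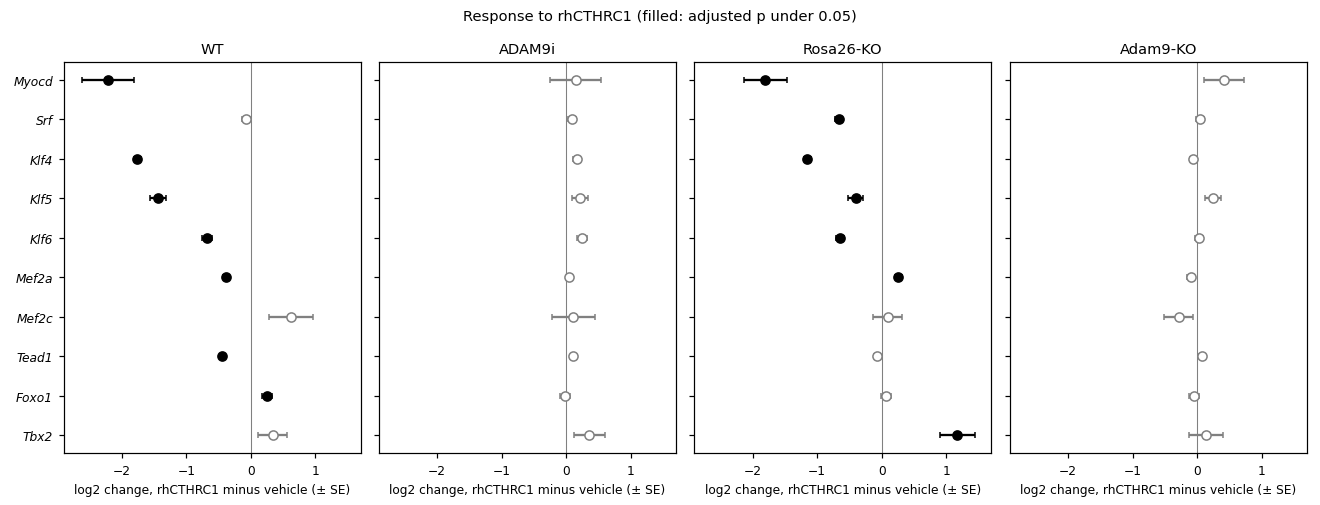
Log2 change after rhCTHRC1 (± SE, rhCTHRC1 minus vehicle) of each regulator in the 4 backgrounds, filled where the adjusted p was under 0.05. There are 7 filled points in WT and 7 in Rosa26-KO, Srf, Mef2a, Tead1, Foxo1 and Tbx2 differ between these 2 panels in call or direction, and no point is filled in ADAM9i or Adam9-KO.

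In unedited WT cells, 7 of 10 members were called against their own vehicle libraries, 1 higher and 6 lower, where 63% of 18816 genes were called, 32.2% higher and 30.8% lower (edgeR). Klf4 went from 400.1, 370.2 and 395 CPM to 126, 111 and 107 CPM, a log2 change of -1.76 ± 0.05 (adjusted p = 5.21e-16). Myocd went from 2.43, 1.51 and 2.91 CPM to 0.444, 0.822 and 0.217 CPM (-2.21 ± 0.40, adjusted p = 8.56e-05). Klf5 went from 18.5, 23.4 and 21.2 CPM to 7.93, 7.64 and 7.79 CPM (-1.43 ± 0.12, adjusted p = 4.93e-09). None of these groups overlapped. Klf6 (-0.68 ± 0.08), Tead1 (-0.45 ± 0.03) and Mef2a (-0.38 ± 0.04) were lower and Foxo1 (0.24 ± 0.08, adjusted p = 0.0104) was higher. Foxo1 lost its call without WT vehicle replicate 1 (adjusted p = 0.0736). Srf, at 63.0 ± 0.72 CPM under vehicle and 59.5 ± 6.75 CPM after rhCTHRC1, did not pass (-0.08 ± 0.06, adjusted p = 0.265), but passed at -0.17 without WT rhCTHRC1 replicate 1. Mef2c (0.62 ± 0.34, adjusted p = 0.145) passed without WT rhCTHRC1 replicate 3. In the same libraries the summed fibroblast markers went from 77.6 to 83.6 CPM up to 401 to 425 CPM (5 of 6 called higher), and the endothelial sum from 23.4 to 26.4 CPM down to 11.3 to 12.8 CPM (2 of 3 tested called lower). Their part in the results was not tested.

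The directions in WT cells depended on the vehicle libraries used. With Rosa26-KO vehicle libraries in place of WT vehicle, again 7 members were called, but 4 higher and 3 lower, where 50.1% of 19891 genes were called, 24.4% higher and 25.7% lower. With ADAM9i vehicle libraries the 7 called were 5 higher and 2 lower, where 50.4% of genes were called, 24.6% higher and 25.8% lower. Klf4 then turned from -1.76 to 0.58 ± 0.06 (adjusted p = 4.88e-10) or 1.09 ± 0.06 (adjusted p = 9.74e-16), and Mef2a turned to 0.31 ± 0.05 or 0.58 ± 0.05. Tead1 turned to 0.02 ± 0.04 (adjusted p = 0.734) or 0.19 ± 0.04 (adjusted p = 0.000106). Klf6 was at -0.13 ± 0.08 (adjusted p = 0.169) or 0.17 ± 0.08 (adjusted p = 0.0666). Klf5 remained lower, at -0.52 ± 0.12 or -0.38 ± 0.12, and Foxo1 higher, at 0.42 ± 0.08 or 0.58 ± 0.08, all past the threshold. Srf became lower, at -0.52 ± 0.06 or -0.50 ± 0.06, and Tbx2 higher, at 1.66 ± 0.26 or 1.24 ± 0.25, also past it. Myocd was lower by either control, at -1.43 ± 0.38 (adjusted p = 0.00197) or -0.56 ± 0.38, but the second did not pass (adjusted p = 0.235). Mef2c turned to -0.65 ± 0.29 (adjusted p = 0.0691) or -0.03 ± 0.29 (adjusted p = 0.954), neither past the threshold. The 3 contrasts share the WT libraries given rhCTHRC1, and the other 2 vehicle groups are also the controls of their own responses. Background and inhibitor also enter these values.

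**Figure D4:**
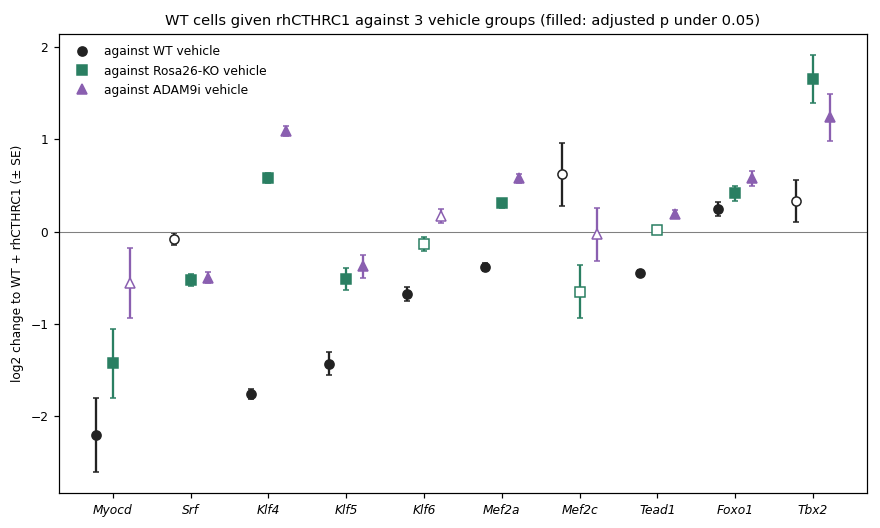
Log2 change (± SE) from 3 different vehicle groups to WT cells given rhCTHRC1, filled where the adjusted p was under 0.05. Klf4, Mef2a and Tead1 lie below 0 against WT vehicle and above 0 against Rosa26-KO or ADAM9i vehicle, and Klf5 lies below 0 and Foxo1 above 0 against all 3.

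Under the inhibitor, no member was called after rhCTHRC1. By edgeR the count was 0 of 10, where 3.98% of 18816 genes were called (2.66% higher and 1.32% lower), and 3 members (Klf4, Klf6 and Tead1) had an unadjusted p under 0.05, against 2941 of all genes. DESeq2 called these 3 members, all higher, but it also called more of all genes here than edgeR did, as counted in the last section. Klf6 was at 82.3, 81.1 and 81.0 CPM under vehicle and at 98.6, 95.6 and 95.6 CPM after rhCTHRC1 (log2 change 0.25 ± 0.08, adjusted p = 0.102). Klf4 was at 53.8, 52.5 and 56.2 CPM and then at 62.3, 61.7 and 58.1 CPM (0.16 ± 0.05, adjusted p = 0.101). Tead1 was at 166, 170.4 and 166 CPM and then at 175, 186 and 181 CPM (0.11 ± 0.03, adjusted p = 0.0628). For these 3 genes every treated library lay above every vehicle library, and the other 7 overlapped. How many of all genes were apart in this way was not counted. Srf, for example, was at 84.7 ± 4.24 CPM under vehicle and 90.4 ± 3.49 CPM after rhCTHRC1 (0.10 ± 0.06, adjusted p = 0.507).

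Compared directly, the response under the inhibitor differed from that in WT cells for 7 of 10 members, 6 higher and 1 lower (edgeR), where 56% of genes were called, 27.8% higher and 28.3% lower. The log2 differences were 2.36 ± 0.56 for Myocd, 1.93 ± 0.07 for Klf4, 1.65 ± 0.17 for Klf5 and 0.92 ± 0.11 for Klf6. For Tead1 the difference was 0.56 ± 0.05, for Mef2a 0.43 ± 0.06 and for Foxo1 -0.27 ± 0.11 (adjusted p = 0.0473). Foxo1 lost its call in 8 of 12 fits with 1 library left out, with adjusted p up to 0.139: WT vehicle replicate 1 or 3, WT rhCTHRC1 replicate 2 or 3, ADAM9i vehicle replicate 1 or 3, or ADAM9i rhCTHRC1 replicate 2 or 3. Without WT rhCTHRC1 replicate 1, Srf (0.18 ± 0.09, adjusted p = 0.0914) was called. With Rosa26-KO vehicle libraries in place of WT vehicle, 8 members were called, 4 higher and 4 lower, where 42.7% of genes were called, 22.7% higher and 20% lower. Klf4 (-0.42 ± 0.08) and Mef2a (-0.26 ± 0.07) then turned to the other direction, and Tead1 lost its call (0.09 ± 0.06, adjusted p = 0.194). Srf (0.62 ± 0.09) gained a call, as did Tbx2, which went from 0.02 ± 0.32 to -1.30 ± 0.36. Myocd (1.58 ± 0.53), Klf5 (0.73 ± 0.17), Klf6 (0.38 ± 0.11) and Foxo1 (-0.44 ± 0.12) kept direction and call. Mef2c, uncalled by either control, went from -0.51 to 0.76. This substitution was chosen after the data were seen.

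The controls for these responses were far apart in the first place. Against WT vehicle, ADAM9i vehicle libraries differed in 9 of 10 members, 1 higher and 8 lower (edgeR), where 57.4% of genes were called, 29.9% higher and 27.5% lower. Rosa26-KO vehicle libraries differed from WT vehicle in 8 members, 2 higher and 6 lower, where 53.7% of genes were called, 27.9% higher and 25.8% lower. Klf4 was 7.16-fold lower in ADAM9i vehicle and 5.01-fold lower in Rosa26-KO vehicle than in WT vehicle (adjusted p = 2.46e-18 and 1.55e-23). Klf5 was 2.06-fold and 1.86-fold lower, Mef2a 1.93-fold and 1.60-fold lower, Tead1 1.55-fold and 1.36-fold lower. Myocd was 3.11-fold lower in ADAM9i vehicle than in WT vehicle (adjusted p = 0.00135). Between Rosa26-KO vehicle and WT vehicle, Myocd did not pass (adjusted p = 0.0719). Srf was the exception among the abundant members, 1.34-fold and 1.38-fold higher than in WT vehicle. Leaving out WT vehicle replicate 1 added Foxo1, and leaving out replicate 2 added Myocd, to those called in Rosa26-KO. Of 6 fibroblast markers, 4 were called higher and 1 lower than in WT vehicle, in ADAM9i vehicle and in Rosa26-KO vehicle alike. The endothelial sum was 23.4 to 26.4 CPM in WT vehicle and at most 6.09 CPM in the other vehicle groups. Of the endothelial markers tested, 2 of 3 were called lower in ADAM9i vehicle and 2 of 4 in Rosa26-KO vehicle. The part of these markers in the difference was not tested.

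The Rosa26-KO and WT responses, each against its own vehicle, differed for 5 of 10 members, 4 higher and 1 lower in Rosa26-KO (edgeR), where 43.8% of genes were called, 21.7% higher and 22.1% lower. Srf differed by -0.60 ± 0.09, Klf4 by 0.59 ± 0.08, Klf5 by 1.01 ± 0.17, Mef2a by 0.63 ± 0.07 and Tead1 by 0.35 ± 0.05. Tbx2 (0.82 ± 0.36, adjusted p = 0.0641) was called as well without Rosa26-KO rhCTHRC1 replicate 3 or WT rhCTHRC1 replicate 3. With ADAM9i vehicle in place of WT vehicle, 5 members were called and all were lower, where 24.1% of genes were called, 13.6% higher and 10.4% lower. Klf4 (-2.24 ± 0.08), Mef2a (-0.32 ± 0.07), Tead1 (-0.27 ± 0.06) and Klf6 (-0.82 ± 0.11) then were lower, Foxo1 gained a call (-0.51 ± 0.12), and Srf (-0.17 ± 0.09) and Klf5 (-0.02 ± 0.17) lost theirs. The uncalled Myocd went from 0.39 to -1.24, Mef2c from -0.54 to 0.12 and Tbx2 from 0.82 to -0.07. This substitution, too, was chosen after the data were seen. Backgrounds and any difference in handling cannot be told apart in this comparison.

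Comparing the treated groups leaves the WT vehicle libraries out of the contrast, although they stay in the fit. After rhCTHRC1, ADAM9i cells differed from WT cells in 6 members (54.1% of genes by edgeR, 28% higher and 26.1% lower). Srf was 1.52-fold and Klf5 1.52-fold higher, and Klf4 was 1.89-fold, Tbx2 1.83-fold, Foxo1 1.51-fold and Mef2a 1.43-fold lower. For all 6 the libraries of the 2 groups did not overlap. Leaving out WT rhCTHRC1 replicate 2 added Myocd, and leaving out WT rhCTHRC1 replicate 3 or ADAM9i rhCTHRC1 replicate 2 added Tead1. Rosa26-KO and WT cells, both treated, differed in 3 members (32.4% of genes, 18.3% higher and 14.1% lower), Klf4 (3.32-fold), Klf6 (1.43-fold) and Foxo1 (1.27-fold), all lower in Rosa26-KO. This count rose with 1 library left out, as Srf was added without Rosa26-KO rhCTHRC1 replicate 3 or WT rhCTHRC1 replicate 2 or 3, Mef2c without Rosa26-KO rhCTHRC1 replicate 1 or WT rhCTHRC1 replicate 2, and Tead1 without WT rhCTHRC1 replicate 3.

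Across the 8 groups, WT vehicle held the highest mean of 6 members (Klf4, Klf5, Klf6, Mef2a, Tead1 and Myocd), and Rosa26-KO with rhCTHRC1 the lowest of 4 (Klf4, Klf6, Srf and Myocd). Klf4 fell into the most distinct order: WT vehicle, WT with rhCTHRC1, then Adam9-KO vehicle, Adam9-KO with rhCTHRC1 and Rosa26-KO vehicle, which overlapped, then ADAM9i with rhCTHRC1, ADAM9i vehicle and Rosa26-KO with rhCTHRC1, each apart from the next. For Mef2a, both WT groups and the treated Rosa26-KO group stood apart at the top in that order. In Srf, a high set (both ADAM9i groups and Rosa26-KO vehicle, 79.97 to 93.5 CPM) was separated from the other 5 groups (50.4 to 69.0 CPM). For Tbx2, Mef2c and Foxo1, each group overlapped its neighbour in the order throughout.

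Genes that act with these regulators were followed in lists chosen from their known roles, of which 139 of 145 entries were in the table. In the Rosa26-KO response, 10 of 11 immediate early SRF targets fell and 1 rose, with a median change of -1.25 on the log2 scale against 0.03 over all genes, of which 45.2% were called. Egr1, a zinc-finger factor induced within minutes of growth signals, fell from 124 ± 6.04 to 26.9 ± 1.44 CPM (-2.19 ± 0.05, adjusted p = 2.83e-15), and Junb, an AP-1 subunit, changed by -1.25 ± 0.05 (adjusted p = 1.82e-13). Of 23 contractile genes tested, 10 rose and 8 fell, with a median of 0.23. Acta2, which encodes the actin of smooth muscle, went down from 416 ± 5.80 to 40.4 ± 1.75 CPM (-3.35 ± 0.08, adjusted p = 7.41e-12) and Tagln, SM22, fell from 9.58 ± 1.01 to 3.50 ± 0.94 CPM (-1.44 ± 0.18, adjusted p = 1.75e-06). Cnn2, a calponin, rose by 0.52 ± 0.05 (adjusted p = 3.32e-08) and Csrp1, a LIM protein, by 0.37 ± 0.04 (adjusted p = 7.83e-07). Cnn1 (0.53 ± 0.37, adjusted p = 0.273) and Myh11 (0.64 ± 0.66, adjusted p = 0.478) did not pass. CArG boxes were found in the promoters of 3 of 20 contractile genes (Cnn2, Myl9 and Vcl) and of 1 of 7 immediate early targets (Egr2) with a promoter in the reference. Of all promoters searched 1.63% held at least 1, a share counted per promoter, while the list counts are per gene. No match says only that these letters are not in the 300 bases.

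Among 13 tested SRF partners, 2 were higher and 4 lower after rhCTHRC1 in the Rosa26-KO background, and these 6 of 13, like the counts of the next lists, are to be read beside the 45.2% of all genes called there (22% higher and 23.3% lower). Prrx1, a homeodomain protein that binds with SRF, changed by -0.46 ± 0.05 (adjusted p = 7.39e-07), Mrtfa, an actin-regulated coactivator related to myocardin, changed by -0.24 ± 0.04 (adjusted p = 4.71e-05), and Fhl1, a LIM-only protein, by 0.14 ± 0.03 (adjusted p = 0.00236). Of the other 12 Kruppel-like factors tested, 3 rose and 4 fell, among them Klf10 (-1.18 ± 0.07, adjusted p = 1.21e-10) and Klf9 (-0.70 ± 0.05, adjusted p = 5.33e-10), while Klf3 rose by 0.24 ± 0.04 (adjusted p = 0.00012). Of 12 other MEF2, TEAD, FOXO and TBX factors, 6 rose and 2 fell, among them Foxo4 (0.67 ± 0.05, adjusted p = 2.28e-09), Foxo3 (0.62 ± 0.05, adjusted p = 2.14e-08) and Tead2 (0.52 ± 0.04, adjusted p = 1.52e-08), with Tbx15 lower (-0.49 ± 0.07, adjusted p = 9.52e-06). Tead1 and Foxo1 themselves were not called there. Of 4 TEAD cofactors 1 rose and 2 fell, Vgll3 (-0.44 ± 0.08, adjusted p = 0.000182) and Yap1 (-0.16 ± 0.04, adjusted p = 0.000902), the latter not with limma on FPKM (adjusted p = 0.0573).

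In Rosa26-KO cells 8 of 15 FOXO1 targets rose and 5 fell, with a median of 0.27, where 45.2% of all genes were called. Fbxo32, a ubiquitin ligase of muscle atrophy, rose from 16.6 ± 1.29 to 46.0 ± 1.15 CPM (1.49 ± 0.07, adjusted p = 1.81e-11), and Ccng2, a cyclin of arrested cells, by 1.11 ± 0.06 (adjusted p = 7.22e-11). Among 20 genes of modulated smooth muscle, 10 rose and 6 fell, with a median of 0.09. S100a4, a calcium-binding protein, rose by 1.10 ± 0.05 (adjusted p = 4.03e-12) and Spp1, osteopontin, by 1.11 ± 0.05 (adjusted p = 2.58e-11), while Timp1, a metalloproteinase inhibitor, changed by -0.92 ± 0.06 (adjusted p = 1.87e-10).

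In Adam9-KO cells edgeR called none of the genes in these lists after rhCTHRC1, and DESeq2 called 2 of the modulated smooth muscle genes. Acta2 (-0.15 ± 0.07, adjusted p = 0.659), Tagln (-0.12 ± 0.17, adjusted p = 0.935), Cnn1 (0.33 ± 0.36, adjusted p = 0.907) and Myh11 (0.10 ± 0.66, adjusted p = 0.987) were among the uncalled. The response differed from that of Rosa26-KO cells for Acta2 by 3.20 ± 0.10 (adjusted p = 3.82e-10), for Tagln by 1.32 ± 0.24 (adjusted p = 0.000261) and for Egr1 by 2.02 ± 0.07 (adjusted p = 1.41e-12). For Klf10 the difference was 1.25 ± 0.10 (adjusted p = 1.13e-08), for Cnn2 -0.53 ± 0.07 (adjusted p = 3.08e-06), for Foxo4 -0.83 ± 0.07 (adjusted p = 3.25e-08) and for Fbxo32 -1.58 ± 0.10 (adjusted p = 1.89e-09). All 11 immediate early SRF targets differed, 10 higher and 1 lower in Adam9-KO, and 17 of the 23 contractile genes did, 7 higher and 10 lower, where 37.9% of all genes were called.

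In WT cells the lists moved otherwise against their own vehicle: 10 of 11 immediate early SRF targets rose (median 2.33) and 15 of 23 contractile genes rose and 5 fell (median 1.04), where 63% of all genes were called, 32.2% higher and 30.8% lower. Of 20 genes of modulated smooth muscle 12 rose and 7 fell (median 1.40). Egr1 went from 142 ± 5.89 to 1165 ± 57.6 CPM (3.03 ± 0.08, adjusted p = 6.63e-12), and it was also higher against Rosa26-KO vehicle (3.24) and ADAM9i vehicle (3.30). Acta2 (-2.29 ± 0.12, adjusted p = 7.47e-08) and Tagln (-2.17 ± 0.14, adjusted p = 9.36e-11) were lower, as in Rosa26-KO cells, and also against Rosa26-KO vehicle (-3.09 and -2.38) and ADAM9i vehicle (-3.27 and -2.68). Cnn2 (2.35 ± 0.05, adjusted p = 3.81e-18) was lower instead, by 0.33 or 0.34, against the other 2 vehicle groups. Cnn1 (1.52 ± 0.62, adjusted p = 0.0427) turned to -0.29 or -1.61 with them, and its call was also lost without WT vehicle replicate 1 or 2 or WT rhCTHRC1 replicate 1 or 2. Myh11 did not pass (1.04 ± 1.03, adjusted p = 0.403), nor with the other 2 controls (0.35 and 0.78). Against Rosa26-KO vehicle the contractile split was 6 higher and 8 lower, and against ADAM9i vehicle 6 higher and 10 lower. The immediate early split was 10 higher and 1 lower, or 9 and 1, and that of the modulated genes 7 higher and 10 lower, or 6 and 9. Of all genes, 50.1% and 50.4% were called with these controls.

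Under the inhibitor, 3 of 23 contractile genes rose, where 3.98% of all genes were called: Tpm1 (0.23 ± 0.03, adjusted p = 9.25e-05), Flna (0.18 ± 0.03, adjusted p = 0.000669) and Vcl (0.14 ± 0.03, adjusted p = 0.0191). Vcl lost its call without ADAM9i rhCTHRC1 replicate 1 or 3 or ADAM9i vehicle replicate 1 or 3. Of 20 genes of modulated smooth muscle 4 rose and 1 fell, and 2 of 6 fibroblast markers fell. Among 11 immediate early SRF targets, 13 SRF partners and 15 FOXO1 targets, 1 of each list rose. Of 12 other MEF2, TEAD, FOXO and TBX factors 1 fell. Each of these single calls was lost in some fits with 1 library left out. Of 4 TEAD cofactors 2 rose, among them Vgll3 (0.22 ± 0.05, adjusted p = 0.0112), which lost its call without ADAM9i rhCTHRC1 replicate 2 or 3 or ADAM9i vehicle replicate 3. Acta2 (-0.29 ± 0.11, adjusted p = 0.237), Tagln (0.33 ± 0.13, adjusted p = 0.2), Cnn1 (0.20 ± 0.52, adjusted p = 0.925) and Myh11 (-0.95 ± 1.07, adjusted p = 0.778) did not pass.

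**Figure D5:**
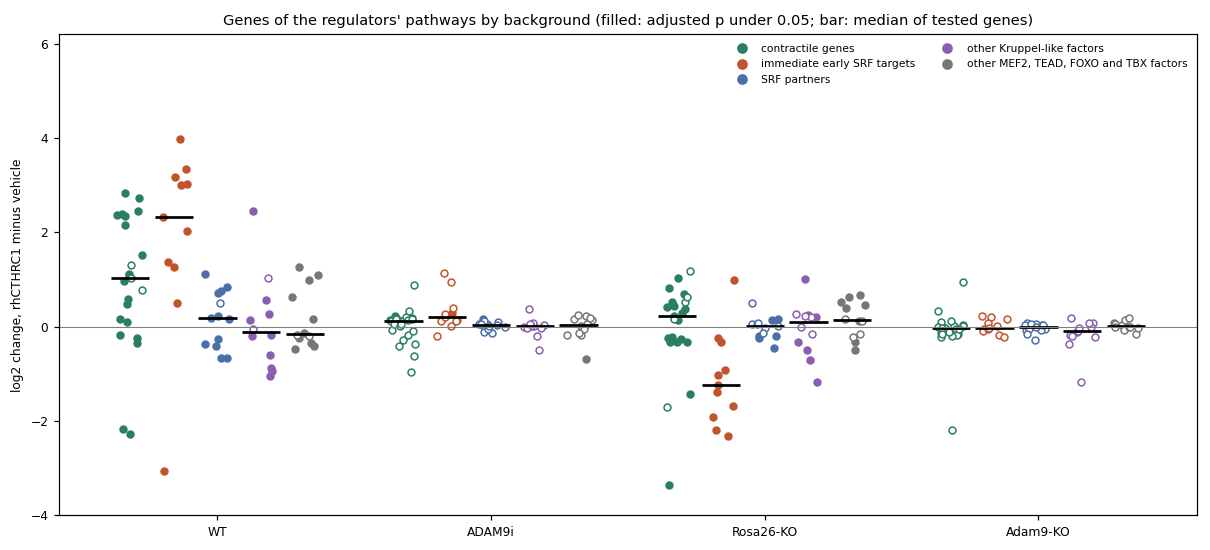
Log2 change after rhCTHRC1 of each tested gene in 5 lists, by background, filled where the adjusted p was under 0.05, with a bar at each list's median. Immediate early SRF targets have a median of 2.33 in WT and -1.25 in Rosa26-KO, and in Adam9-KO every point is open.

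For the 3 members with the widest range over the groups, the genes of most similar pattern were sought among 13501 genes, by the root mean square difference of centred log2 group means over the 8 groups. Closest to Klf4 were Herpud1 (0.16), which encodes a membrane protein of the endoplasmic reticulum, Ddit3 (0.18), which encodes CHOP, and Gm43314 (0.19). Herpud1 was at 626 CPM in WT vehicle and 78.0 CPM in Rosa26-KO with rhCTHRC1, where Klf4 was at 389 and 34.4 CPM. Closest to Myocd were Slc16a6 (0.31), Hmox1 (0.34), heme oxygenase, and Opn3 (0.38), a poorer likeness in a gene of few counts. Closest to Klf5 were Pkdcc (0.11), Ajuba (0.13) and Larp4 (0.13). All of these genes share the WT vehicle libraries as their highest group, as do Klf4, Myocd and Klf5.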

How the data were processed

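RNA of 24 MOVAS libraries (8 groups of 3) was measured by stranded, total RNA sequencing with 150-bp paired reads, per the labels' protocols. The authors deposited 1 table with counts and FPKM values per gene; per the submitters' processing notes HISAT2, StringTie, DESeq2 and GRCm38 were used, with versions and strand settings not given in the sources used here. Counts were tested with edgeR 4.0.16 (quasi-likelihood, robust, TMM, filterByExpr, Benjamini-Hochberg over all genes, two-sided, threshold 0.05) in R 4.3.3. WT and ADAM9i libraries were fitted together, as were Rosa26-KO and Adam9-KO, and comparisons between Rosa26-KO and WT used all 24. Alternatives were DESeq2 1.42.0, RLE factors, library size alone, no filter, limma 3.58.1 on log2(FPKM + 1), other sets of libraries, other vehicle libraries, a replicate block and leaving out each library. The authors' deposited FPKM served for levels between genes. Scripts were tested on simulated data. Libraries differed beyond counting noise, so none was counted as a duplicate.

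The 10 members and the gene lists were chosen with earlier results of these data known. Named genes were the members, Adam9, up to 4 called genes with the smallest p per list and comparison, Acta2, Tagln, Myh11 and Cnn1, and the 3 nearest patterns for the 3 members of widest range. Tagln in the difference of the edited responses, and the list genes with a CArG box, fall outside that rule and were named after their values were seen. Promoters were RefSeq's, from GRCm38.p6, and sequences for Myocd, Klf5, Tead1 and Tbx2 were not used here.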

Additional observations from a re-analysis of the deposited data

Results flagged for a closer look

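The responses to rhCTHRC1 differed between backgrounds, by the interaction term of edgeR over all genes, in 19 cases among the 10 regulators. For Adam9-KO minus Rosa26-KO these were 7 of 10, where 37.9% of all genes were called. For ADAM9i minus WT they were 7 of 10, beside 56% of all genes, and for Rosa26-KO minus WT 5 of 10, beside 43.8%. Against the Rosa26-KO response, the Adam9-KO response differed on the log2 scale by 2.22 for Myocd, 0.71 for Srf, 1.09 for Klf4, 0.65 for Klf5, 0.68 for Klf6, -0.36 for Mef2a and -1.03 for Tbx2. Against the WT response, the response under ADAM9i differed by 2.36 for Myocd, 1.93 for Klf4, 1.65 for Klf5, 0.92 for Klf6, 0.43 for Mef2a, 0.56 for Tead1 and -0.27 for Foxo1. The Rosa26-KO response differed from that of WT by -0.60 for Srf, 0.59 for Klf4, 1.01 for Klf5, 0.63 for Mef2a and 0.35 for Tead1. The last 2 sets rest on the WT vehicle libraries, which stood apart from the other 21. Tbx2 in the first set and Foxo1 in the second each lost the call in 8 of 12 fits with 1 library left out.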

How the results depend on the processing

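Of 924 values of the 10 regulators under alternatives other than leaving out a library, 854 kept direction and side of the threshold, 8 lost the call, 30 gained one and 32 changed sign, and the cause was not tested. Of the 32, 17 were uncalled in both fits (6 with another vehicle group, 6 with library size alone and 5 with limma), and 15 were called in at least 1. All 15 came from replacing the WT vehicle group as control. In the WT response Klf4 went to 0.58 with Rosa26-KO vehicle and 1.09 with ADAM9i vehicle. Mef2a went to 0.31 and 0.58, Tead1 to 0.019 and 0.19, and Klf6 to 0.17 with ADAM9i vehicle. Not counted among the 15, as they are not regulators, Cnn1 went to -0.29 and -1.61 and Cnn2 to -0.33 and -0.34. In the ADAM9i response minus that of WT, with Rosa26-KO vehicle, Klf4 went to -0.42, Mef2a to -0.26 and Tbx2, uncalled at 0.02 before, to -1.30. In the Rosa26-KO response minus that of WT, with ADAM9i vehicle, Klf4 went to -2.24, Klf5 to -0.024, Klf6 to -0.82, Mef2a to -0.32 and Tead1 to -0.27, and 4788 genes were called in place of 8720. These last 2 substitutions were chosen after seeing the data.

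DESeq2 called 1187 genes and 3 regulators in the ADAM9i response (edgeR 749 and 0), and 33 genes in the Adam9-KO response (edgeR 0). Between treated Rosa26-KO and WT cells edgeR called 3 regulators and 32.4% of genes. DESeq2 and limma on FPKM added Srf, Mef2c and Tead1 there, and library size alone added Srf and Tead1. The limma filter left 8 regulators, without Myocd and Tbx2. Without the filter on low counts, the Tbx2 difference between the edited responses lost its call (adjusted p = 0.0519). Library size alone reversed no called value of a regulator, turned 6 uncalled ones (in the WT response, Srf from -0.08 to 0.10), and moved the all-gene median of the WT response from 0.03 to 0.21, of ADAM9i minus WT from -0.04 to -0.24 and of treated ADAM9i minus WT from -0.02 to -0.16. The share of called genes that were higher went from 51.1% to 61.4% in the WT response, from 48.6% to 59.3% in Rosa26-KO, from 49.5% to 38.5% in ADAM9i minus WT, from 53.1% to 41.3% in Adam9-KO minus Rosa26-KO, from 41.9% to 63.6% between their vehicle groups, from 51.8% to 39.2% between treated ADAM9i and WT, and from 56.5% to 44.8% between treated Rosa26-KO and WT.

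Replicate numbers did not pair the samples: over 84 same-numbered pairs the correlation of deviations lay between -0.0446 and 0.0453. With the replicate block, 1 regulator was called in the ADAM9i response (Klf6), Foxo1 lost its call in ADAM9i minus WT, and no other call of a regulator changed.

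With 1 library left out, the genes and regulators called ranged from 11348 to 11447 and 6 to 8 in the WT response, 397 to 638 and 0 to 0 in ADAM9i, 7555 to 7754 and 7 to 7 in Rosa26-KO, and 0 to 3 and 0 to 0 in Adam9-KO. They ranged from 10153 to 10364 and 6 to 8 in ADAM9i minus WT, 6367 to 6898 and 6 to 8 in Adam9-KO minus Rosa26-KO, and 8280 to 8435 and 5 to 6 in Rosa26-KO minus WT. Between vehicle groups they ranged from 10247 to 10315 and 9 to 9 (ADAM9i, WT), 1760 to 2433 and 2 to 4 (Adam9-KO, Rosa26-KO), and 10078 to 10198 and 8 to 9 (Rosa26-KO, WT). Between treated groups they ranged from 9523 to 9723 and 6 to 7, 6687 to 7107 and 5 to 6, and 5569 to 5683 and 3 to 5, in the same order. The ADAM9i count moved by over 1.5 times without ADAM9i rhCTHRC1 replicate 1 (423) or 3 (397) or ADAM9i vehicle replicate 2 (453) or 3 (423), and that between edited vehicle groups without Adam9-KO vehicle replicate 1 (1760) or 2 (1788). Leaving out 1 library reversed no called value of a regulator, but 30 of 960 values, all uncalled in both fits, changed sign. Myocd and Tbx2 rest on few counts, which limits their precision.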
